A study of Mus musculus with 12 samples.

Results

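The genes described here make, break down and read out cyclic AMP (cAMP): the adenylyl cyclases (Adcy1 to Adcy10), the cyclic nucleotide phosphodiesterases (Pde genes) and the catalytic and regulatory subunits of protein kinase A (PKA, Prkac and Prkar genes). They were matched by gene symbol, with no filter on their values, and comprised 38 of the 55401 listed genes. These were 10 cyclases, 22 phosphodiesterases, 2 catalytic subunits and 4 regulatory subunits. The set was chosen with earlier results of these data known, so its counts are not an independent test. RNA-seq was performed on adult neural stem/progenitor cells (aNSPCs) from the forebrain of C57BL/6 mice aged 8 to 10 weeks, with 3 samples in each of 4 groups. Cells were kept under proliferating conditions, in medium with 20 ng/mL EGF and 20 ng/mL FGF-2, without NAD+ (proliferating Ctrl) or with 1 mM NAD+ (proliferating NAD+). For differentiation, the cells received 5 µM forskolin together with 1 µM retinoic acid, again without NAD+ (differentiation Ctrl) or with 1 mM NAD+ (differentiation NAD+), and whether the growth factors stayed in this medium is not given in the sources used here. The titles of the samples give the groups, whereas a treatment field names all 12 samples as untreated. The samples of a group are described as biological repeats, without saying whether they came from separate mice or cultures, and the p-values measure the spread between these samples. Levels are FPKM (mapped fragments scaled by the length of the gene's exons and by the depth of the sample), errors are SDs over the 3 samples of a group, and the read depth is unknown.

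Adenylyl cyclases convert ATP to cAMP, which binds the regulatory subunits of PKA and frees the catalytic subunits to phosphorylate their targets, CREB among them. Phosphodiesterases hydrolyse cAMP, cGMP or both. Forskolin acts on membrane-bound adenylyl cyclases directly and bypasses receptors and Gs. Adcy9 responds to it weakly, and Adcy10, the soluble cyclase, does not. In neural progenitors, cAMP signalling is known for its part in survival and neuronal maturation, and forskolin with retinoic acid is a common differentiation mixture.

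The summed FPKM of a sample ranged from 308828 to 363330. Proliferating Ctrl replicate 1 held the highest sum, against 308828 to 314683 in the other proliferating samples, and the lowest mean correlation with its own group (0.959, against 0.966 or more elsewhere), so calls that were gained or lost without it are named below with their values. Summed markers of dividing cells were 176 to 247 FPKM in proliferating samples and 19.0 to 22.5 FPKM in differentiation samples. Summed stem/progenitor markers were 577 to 701 and 336 to 430 FPKM, respectively. Microglial markers summed to at most 0.3 FPKM and endothelial and mural markers to at most 1.64 FPKM in any sample.

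Of the 38 genes, 31 passed the filter on low values (an average of 0.1 FPKM or more in the samples compared) in every comparison. The remaining 7 did not pass in any: Adcy4 and Adcy10, the calcium-dependent Pde1a, the cAMP-specific Pde4c, and the photoreceptor subunits Pde6a, Pde6b and Pde6c. Pde6c was listed at 0 in all 12 samples, and the highest value of the other 6 was 0.17 FPKM, for Pde1a in proliferating Ctrl replicate 2. Averaged over the 12 samples, 6 genes were at 10 FPKM or more, 18 between 1 and 10, and 7 between 0.1 and 1.

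**Figure D1:**
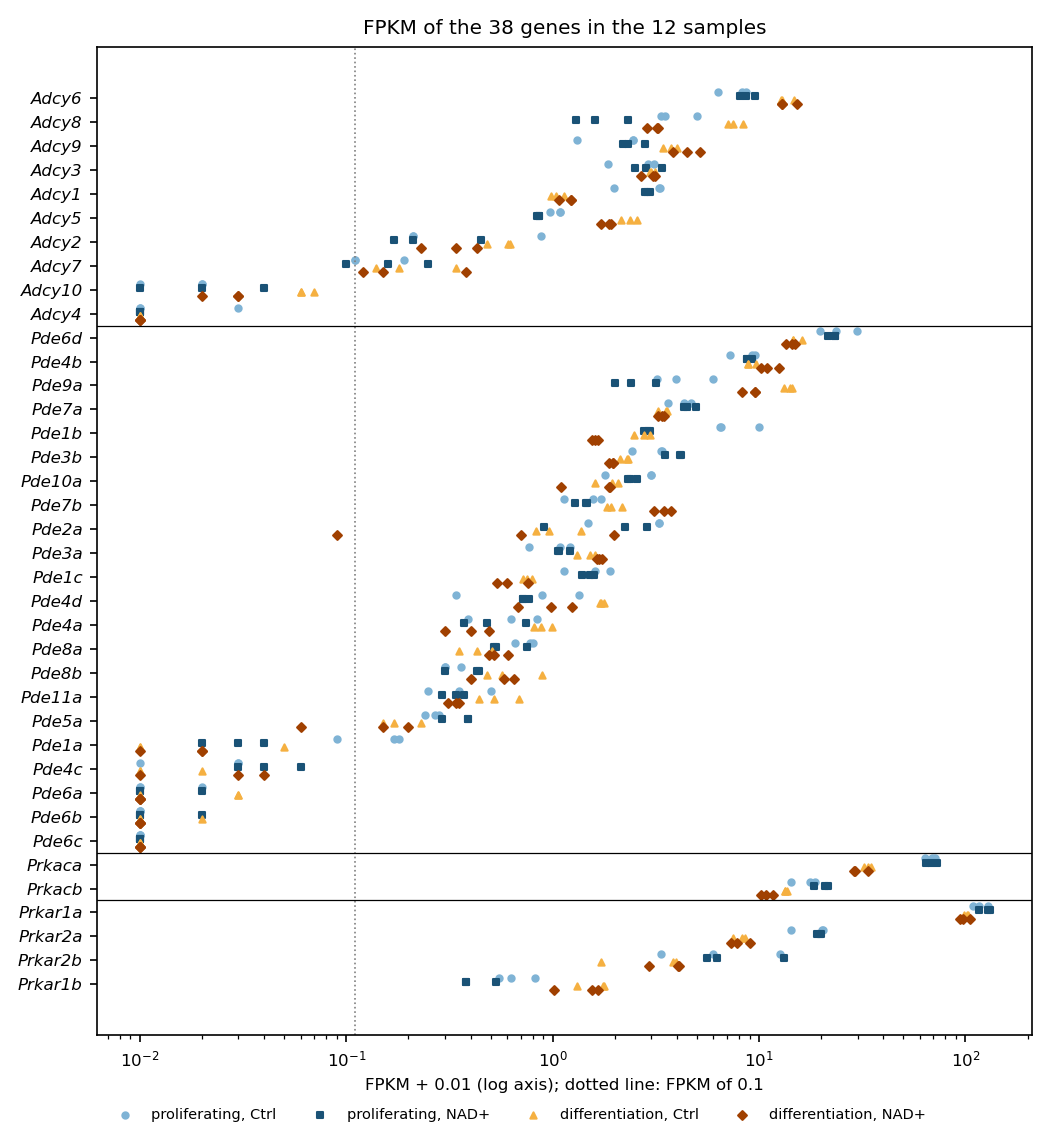
FPKM (plus 0.01, log axis) of the 38 genes, 1 row a gene and 1 point a sample, with the 4 groups by colour and symbol, genes ordered by mean within each family and a dotted line at an FPKM of 0.1. Prkar1a and Prkaca lie at the top of the scale, and 7 genes lie almost wholly left of the dotted line.

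Prkar1a and Prkaca, both PKA subunits, were the most abundant of these transcripts. Prkar1a, the type I regulatory subunit found in nearly all cells, averaged 111 FPKM over the 12 samples, with single samples between 93.70 and 130.78. Prkaca, the main catalytic subunit, averaged 50.1 FPKM, and Prkacb, the other catalytic subunit, 15.4. The type II regulatory subunits Prkar2a and Prkar2b averaged 13.5 and 5.62 FPKM, and the brain-enriched Prkar1b averaged 1.02.

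Among the cyclases, Adcy6, which calcium and Gi inhibit, was first in all 4 groups, with 37.0% to 49.4% of the summed cyclase FPKM (group means). The calcium- and calmodulin-stimulated Adcy8 came second in both Ctrl groups, at 3.94 ± 0.914 FPKM under proliferating and 7.61 ± 0.682 FPKM under differentiation conditions. With NAD+ it came after Adcy3, Adcy1 and Adcy9 under proliferating conditions, at 1.73 ± 0.524 FPKM. Under differentiation conditions with NAD+ it came after Adcy9, and its 3.08 ± 0.200 FPKM lay within the spread of Adcy3 at 2.94 ± 0.236 FPKM.

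Pde6d, a chaperone of prenylated proteins that carries a phosphodiesterase name, averaged 19.1 FPKM and is left out of sums over the phosphodiesterases. Pde4b, a cAMP-specific enzyme, averaged 9.45 FPKM, the cGMP-specific Pde9a 7.48 FPKM and the cAMP-specific Pde7a 3.89 FPKM. The order changed between groups. After Pde4b, the calcium-dependent Pde1b was next in proliferating Ctrl, Pde7a in proliferating NAD+ and Pde9a in differentiation NAD+, whereas in differentiation Ctrl Pde9a exceeded Pde4b (13.9 ± 0.649 against 9.08 ± 0.471 FPKM).

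CREB, a target of PKA, binds the cAMP response element, so the promoter windows of these genes (RefSeq, GRCm38.p6, 250 bases before to 50 bases after a start site) were searched for its letters. The full element TGACGTCA reads the same on both strands. Its core TGACG was searched on both strands, where the other strand reads CGTCA, and each full element holds 2 overlapping cores. Of the 38 genes, 30 had at least 1 window, 67 in all. Adcy6, Adcy8, Pde3a, Pde3b, Pde6a, Pde6c, Pde7a and Pde9a had no window and were not searched. The full element was found in 2 of the 67 windows (2.99%), both of Prkar1a and overlapping each other, against 1.79% of 32851 windows of all genes. The core was found in 15 windows (22.4%), against 20.8% of all windows. Shown are Prkar1a, the most abundant of these transcripts and the holder of the full element, 49 bases before this start site; Prkaca, whose window held 2 cores; and Pde1b, the phosphodiesterase with the largest NAD+ difference under proliferating conditions, whose window held neither. Capitals mark the full element and the cores, and all windows are on the plus strand, at chr11:109650699-109650998, chr8:83972728-83973027 and chr15:103502784-103503083, respectively.
Prkar1a: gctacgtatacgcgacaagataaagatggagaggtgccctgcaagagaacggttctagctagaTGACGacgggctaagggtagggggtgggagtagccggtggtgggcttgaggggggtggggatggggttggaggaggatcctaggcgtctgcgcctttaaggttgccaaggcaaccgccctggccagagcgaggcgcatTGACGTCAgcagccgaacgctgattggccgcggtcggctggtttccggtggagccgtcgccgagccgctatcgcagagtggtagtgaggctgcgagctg
Prkaca: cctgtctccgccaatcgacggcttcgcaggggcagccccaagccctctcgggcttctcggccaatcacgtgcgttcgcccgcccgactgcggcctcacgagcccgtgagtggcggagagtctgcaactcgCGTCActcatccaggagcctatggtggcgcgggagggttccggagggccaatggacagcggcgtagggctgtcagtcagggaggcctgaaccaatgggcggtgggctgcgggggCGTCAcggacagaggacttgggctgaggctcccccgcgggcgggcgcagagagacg
Pde1b: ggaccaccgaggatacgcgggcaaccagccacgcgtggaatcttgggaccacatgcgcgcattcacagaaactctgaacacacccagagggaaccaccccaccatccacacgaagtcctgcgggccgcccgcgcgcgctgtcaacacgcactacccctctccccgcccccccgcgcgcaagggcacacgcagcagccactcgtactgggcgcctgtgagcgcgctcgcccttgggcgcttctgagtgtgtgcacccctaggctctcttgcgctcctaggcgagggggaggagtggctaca
A match describes letters in these windows only.

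Under proliferating conditions, the question was which of these genes differed between NAD+ and Ctrl. Of the 31 tested genes, 0 passed an adjusted p of 0.05 in limma, against 27 of 18597 genes tested (0.145%). At an unadjusted p under 0.05 there were 3 (9.68%, against 15.4% of all tested genes), all lower with NAD+: Pde1b, Adcy8 and Pde9a. Groups did not overlap for 7 of 31 genes (22.6%, against 24.1% of all tested genes), and with 3 samples against 3 the exact permutation test cannot go below p = 0.1. The median log2 fold change of the 31 genes was 0.01 and that of all tested genes 0.07.

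Pde1b, a calcium- and calmodulin-dependent enzyme that hydrolyses both cyclic nucleotides (chr15:103503034-103530052, plus strand), was at 9.99, 6.46 and 6.56 FPKM in Ctrl and at 2.75, 2.95 and 2.89 FPKM with NAD+. Every NAD+ sample lay below every Ctrl sample, and Ctrl replicate 1 was the highest. The log2 fold change on the log2(FPKM + 0.1) scale, which understates changes of low genes, was -1.36 with an SE of 0.18, and the limma adjusted p was 0.0583. Without proliferating Ctrl replicate 1 the log2 fold change was -1.16 and the adjusted p 0.0401. In that fit 1 of the 31 genes passed, against 36 of 18590 genes tested.

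Adcy8 (chr15:64697084-64922296, minus strand) was at 4.99, 3.51 and 3.32 FPKM in Ctrl and at 2.31, 1.29 and 1.59 FPKM with NAD+. The groups did not overlap, the log2 fold change was -1.16 with an SE of 0.25, and the limma adjusted p was 0.126. Without proliferating Ctrl replicate 1 the log2 fold change was -0.98 and the adjusted p 0.151. Pde9a (chr17:31386210-31476310, plus strand) was at 5.96, 3.95 and 3.18 FPKM in Ctrl and at 3.15, 2.00 and 2.38 FPKM with NAD+. Its lowest Ctrl sample was close to its highest NAD+ sample, the log2 fold change was -0.75 with an SE of 0.26, and the limma adjusted p was 0.264. Without proliferating Ctrl replicate 1 the log2 fold change was -0.51 and the adjusted p 0.307.

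None of the PKA subunits passed between the proliferating groups. Prkaca was at 67.9 ± 3.87 FPKM in Ctrl and 68.5 ± 4.48 with NAD+, with a 95% interval of the log2 fold change from -0.19 to 0.21. Prkar1a was at 118 ± 9.50 and 125 ± 7.94 FPKM, with an interval from -0.13 to 0.31. For Prkacb the interval ran from -0.02 to 0.56, for Prkar2a from -0.23 to 0.46, and for Adcy6 from -0.15 to 0.53. Prkar2b had a wide interval, from -0.95 to 1.52. Prkar1b was at 0.657 ± 0.139 FPKM in Ctrl and 0.42 ± 0.0866 with NAD+. Its groups did not overlap, and its interval ran from -1.12 to 0.04. In the same samples, the 6 oligodendrocyte lineage markers (Olig2, Sox10, Pdgfra, Cspg4, Mbp and Mog) summed to 326 to 374 FPKM in Ctrl and 281 to 319 FPKM with NAD+. Most of this sum was Olig2, at 334 ± 24.9 and 289 ± 21.5 FPKM. Of these markers 0 of the 5 tested passed in limma, with 2 at an unadjusted p under 0.05. The astrocyte markers summed to 542 to 597 and 468 to 591 FPKM, and 0 of 6 passed in limma, also at an unadjusted p under 0.05. Their part in the values of Pde1b, Adcy8 and Pde9a was not tested.

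Under differentiation conditions, where forskolin was present in both groups, 6 of the 31 tested genes passed an adjusted p of 0.05 in limma (19.4%), against 6.92% of 19611 genes tested. Adcy8, Pde9a, Pde1b, Pde4a and Prkacb fell with NAD+ (5 of 31, against 4.65% of all tested genes called lower), and Pde7b rose (1 of 31, against 2.27% called higher). At an unadjusted p under 0.05 there were 11 (35.5%, against 24.2%), and groups did not overlap for 13 (41.9%, against 30.7%). The median log2 fold change was -0.20 for the 31 genes and -0.08 for all tested genes. In these bulk samples, fewer cells of a type and less RNA per cell cannot be told apart.

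Of the genes called, Adcy8 had the largest log2 fold change. It was at 7.03, 7.43 and 8.36 FPKM in Ctrl and at 3.21, 3.18 and 2.85 FPKM with NAD+. The highest NAD+ sample was less than any Ctrl sample by a wide margin, and the mean was 2.47-fold lower with NAD+. The log2 fold change was -1.28 with an SE of 0.09, and the limma adjusted p was 0.00361. Its share of the summed cyclase FPKM was 23.8 ± 2.27% in Ctrl and 11.1 ± 0.824% with NAD+. Adcy8 and Adcy1, the calcium-stimulated cyclases, together summed to 8.65 ± 0.652 FPKM in Ctrl and 4.24 ± 0.286 FPKM with NAD+. The lower sum came from Adcy8. Adcy1 was at 1.04 ± 0.0808 FPKM in Ctrl and 1.16 ± 0.0866 with NAD+ (log2 fold change 0.14, limma adjusted p = 0.574).

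The other cyclases did not pass. Adcy6 was at 13.5 ± 1.10 FPKM in Ctrl and 13.7 ± 1.37 with NAD+, with a 95% interval of the log2 fold change from -0.20 to 0.25. Adcy5, the close relative of Adcy6, was at 2.13, 2.54 and 2.37 FPKM in Ctrl and at 1.90, 1.86 and 1.70 FPKM with NAD+. Its groups did not overlap, with a log2 fold change of -0.35 and a limma adjusted p of 0.12.

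Pde9a, which hydrolyses cGMP with high affinity, was at 14.10, 13.20 and 14.46 FPKM in Ctrl and at 9.57, 9.52 and 8.25 FPKM with NAD+. Every NAD+ sample was below every Ctrl sample, the log2 fold change was -0.61 with an SE of 0.08, and the limma adjusted p was 0.0116. Pde1b was at 2.77, 2.46 and 2.95 FPKM in Ctrl and at 1.64, 1.54 and 1.60 FPKM with NAD+. All NAD+ samples were lower, with a log2 fold change of -0.74, an SE of 0.11 and a limma adjusted p of 0.0154.

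Pde7b, a cAMP-specific enzyme (chr10:20398004-20725078, minus strand), was the gene that rose. It was at 1.82, 2.15 and 1.90 FPKM in Ctrl and at 3.08, 3.73 and 3.47 FPKM with NAD+, with every NAD+ sample above every Ctrl sample. Its mean was 1.75-fold higher, the log2 fold change was 0.78 with an SE of 0.11, and the limma adjusted p was 0.0158. Its paralogue Pde7a was at 3.44 ± 0.189 FPKM in Ctrl and 3.36 ± 0.133 with NAD+.

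Pde4a and Prkacb passed narrowly, and neither passed when replicate numbers were blocked (limma adjusted p = 0.0651 and 0.0813). Pde4a, a cAMP-specific enzyme (chr9:21165714-21213248, plus strand), was at 0.87, 0.80 and 0.98 FPKM in Ctrl and at 0.39, 0.29 and 0.48 FPKM with NAD+. The log2 fold change was -1.03 with an SE of 0.21, and the limma adjusted p was 0.0378. Prkacb (chr3:146729574-146812990, minus strand) was at 13.34, 13.70 and 13.39 FPKM in Ctrl and at 11.64, 10.83 and 10.23 FPKM with NAD+. This was a 1.24-fold lower mean, with a log2 fold change of -0.31, an SE of 0.06 and a limma adjusted p of 0.0417. The groups overlapped for neither gene.

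**Figure D2:**
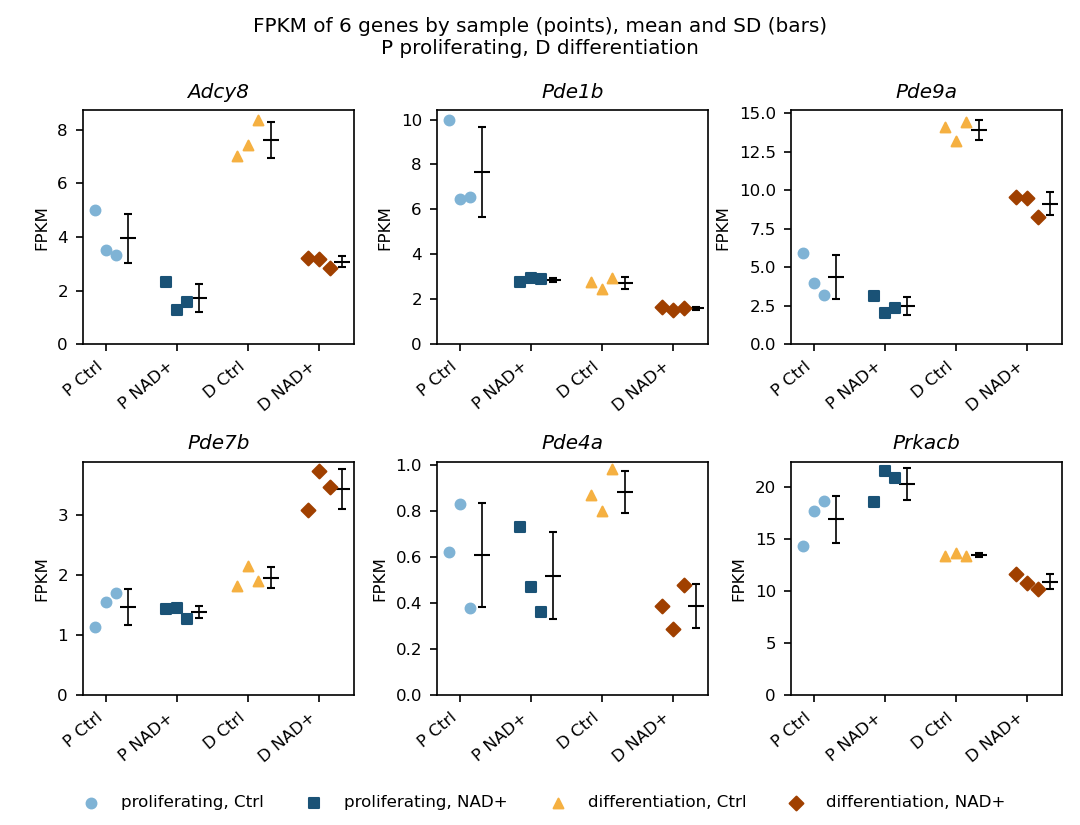
FPKM of Adcy8, Pde1b, Pde9a, Pde7b, Pde4a and Prkacb, the genes that passed the test under differentiation conditions, with 1 point a sample in replicate order, the mean and the SD beside them (linear axes from 0, 4 groups). Adcy8, Pde1b and Pde9a lie lower with NAD+ in both conditions, and Pde7b lies higher with NAD+ under differentiation conditions.

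Neither Pde4d nor Pde4b, also cAMP-specific enzymes, passed. Pde4d was at 1.77, 1.71 and 1.68 FPKM in Ctrl and at 0.97, 1.23 and 0.67 FPKM with NAD+, on the same side as Pde4a and without overlap, with a log2 fold change of -0.82 and a limma adjusted p of 0.0731. Pde4b lay on the other side, at 8.82, 9.62 and 8.79 FPKM in Ctrl and at 10.89, 12.42 and 10.25 FPKM with NAD+. Its groups did not overlap either, with a log2 fold change of 0.30 and a limma adjusted p of 0.102. Adcy2 and Pde11a, both under 1 FPKM in every sample, completed the genes with an unadjusted p under 0.05, and both were lower with NAD+.

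Leaving out single samples changed these calls. The number of genes called was 1 without differentiation Ctrl replicate 1 or without replicate 3 of that group, 4 without its replicate 2, and 5, 3 and 2 without NAD+ replicates 1, 2 and 3. Over all tested genes, 1357 were called with all samples. Without differentiation Ctrl replicates 1, 2 and 3 these were 328, 420 and 406. Without differentiation NAD+ replicates 1, 2 and 3 they were 697, 719 and 552. Adcy8 was called each time, with a limma adjusted p of at most 0.0209. The highest adjusted p in these fits was 0.0558 for Pde9a, 0.0644 for Pde7b, 0.0668 for Pde1b, 0.12 for Pde4a and 0.126 for Prkacb. With the FPKM values rescaled between samples, by the median ratio or by quantiles, 4 genes were called (Adcy8, Pde9a, Pde1b and Pde7b), and the share of higher genes among all genes called was 53.6% or 50.0% in place of 32.8%. Over all tested genes, 1146 and 1161 were called under these rescalings.

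Marker genes of other cell types also differed between these samples. The 6 astrocyte markers summed to 1149 to 1260 FPKM in differentiation Ctrl and 1646 to 1671 FPKM with NAD+. Gfap was the largest part of this sum, at 595 ± 48.1 and 977 ± 18.8 FPKM. In limma 3 of these markers were higher (Gfap, Slc1a3 and Slc1a2) and 1 was lower (Aldh1l1). S100b and Aqp4 were not called, with means of 94.8 and 107 FPKM and of 34.8 and 27.8 FPKM, respectively. The 6 oligodendrocyte lineage markers summed to 143 to 147 and 118 to 126 FPKM. Most of this sum was Olig2, at 118 ± 4.44 and 101 ± 6.53 FPKM, and Mog was at or under 0.22 FPKM in every sample. In limma 0 of the 5 tested passed, with 3 at an unadjusted p under 0.05. The 6 neuron markers summed to 29.8 to 35.3 and 30.4 to 31.0 FPKM, and 0 of them passed in limma, also at an unadjusted p under 0.05. The part of these cell types in the results for the cyclase, phosphodiesterase and PKA genes was not tested.

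**Figure D3:**
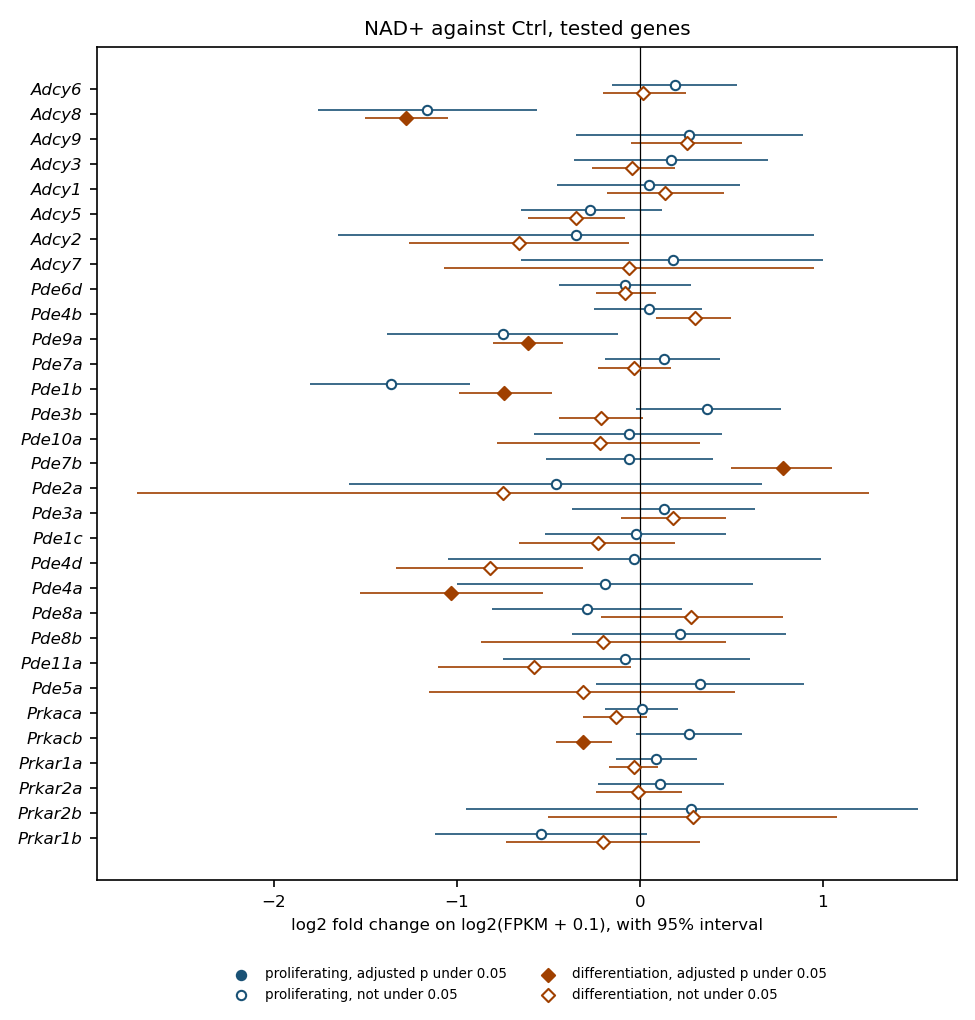
Log2 fold change of NAD+ against Ctrl for the 31 tested genes, on the log2(FPKM + 0.1) scale with 95% intervals, for proliferating (circles) and differentiation conditions (diamonds); filled symbols passed an adjusted p of 0.05. The filled symbols are Adcy8, Pde9a, Pde1b, Pde4a and Prkacb to the left of 0 and Pde7b to the right.

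The NAD+ comparisons of the proliferating and differentiation conditions share no samples. All 3 genes with an unadjusted p under 0.05 under proliferating conditions also had one under differentiation conditions, 3 of the 11 there (27.3%), and all 3 were lower with NAD+ in both. Of all genes tested in both comparisons, 35.5% of those with an unadjusted p under 0.05 under proliferating conditions had one under differentiation conditions (21.7% of those there), and 86.3% of the shared genes had the same direction. Over the 31 genes, 19 had the same sign, against 54.5% of all genes tested in both. In a fit of all 12 samples, the NAD+ effect differed between the conditions for 0 of 31 genes at an adjusted p of 0.05 in limma, against 0.467% of 19498 genes tested. At an unadjusted p under 0.05 there were 4 (12.9%, against 15.5% of all tested genes).

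These 4 genes were Prkacb, Pde7b, Pde3b and Pde1b. For Prkacb the difference of the log2 fold changes, differentiation minus proliferating, was -0.57 with an SE of 0.14 and a limma adjusted p of 0.106. Prkacb was at 14.34, 17.71 and 18.62 FPKM in proliferating Ctrl and at 18.51, 21.51 and 20.82 FPKM in proliferating NAD+, so its means lay in opposite order in the 2 conditions. For Pde7b the difference was 0.83 with an SE of 0.22 and a limma adjusted p of 0.12, and its proliferating values were 1.13, 1.56 and 1.70 FPKM in Ctrl and 1.44, 1.45 and 1.27 FPKM with NAD+. Without proliferating Ctrl replicate 1 that difference was 1.00 with a limma adjusted p of 0.0327. For Adcy8 the difference was -0.12 with a 95% interval from -0.74 to 0.51.

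The change from proliferating to differentiation conditions, which brings forskolin and retinoic acid together and went with lower markers of dividing cells, was compared within Ctrl and within NAD+ samples. The agents and the state of the cells cannot be told apart in this design, and the tables of the conditions were deposited separately. In Ctrl, 16 of 31 genes passed (51.6%, against 52.4% of 19593 genes tested), with 7 higher (22.6% of all tested genes were called higher) and 9 lower (29.7% called lower). In NAD+ samples, 21 of 31 passed (67.7%, against 60.0% of 19342 genes tested), with 9 higher (21.4% called higher) and 12 lower (38.5% called lower). The counts for these genes were thus near those of all genes. In all, 13 genes passed in both comparisons, which share no samples, and all 13 had the same direction, 6 higher and 7 lower. They were 81.2% of the genes called in Ctrl and 61.9% of those called with NAD+. Over all genes tested in both comparisons these shares were 84.4% and 74.2%, and 99.7% of the genes called in both had the same direction, so the overlap of these genes was no larger than that of all genes. Without proliferating Ctrl replicate 1, 19 of the 31 genes passed in Ctrl, against 10776 of 19712 genes tested. Gained were Adcy2 (adjusted p = 0.00921), Pde4d (0.042) and Pde10a (0.0118), and Prkar1a, Prkar2b and Pde3b, which are described below, and lost were Pde2a, Pde8a and Pde8b.

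The median log2 fold change of all tested genes was -0.06 in Ctrl and -0.21 with NAD+. Median-ratio scaling moved it to 0.05 and 0.02, and the genes called were then 10 higher of 17 in Ctrl and 9 higher of 17 with NAD+. Among all genes called, 50.2% and 49.1% were then higher. The changes given here are on the unscaled values. Prkar1a, Pde7a and Prkar2b with NAD+ were no longer called under both rescalings, and Prkacb in Ctrl was not either.

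The PKA subunits changed unevenly. Prkaca (chr8:83972993-83996443, plus strand) was at 63.56, 69.10 and 71.02 FPKM in proliferating Ctrl and at 32.07, 34.73 and 33.62 FPKM in differentiation Ctrl. The groups lay far apart, with a 2.03-fold lower mean, a log2 fold change of -1.02, an SE of 0.07 and a limma adjusted p of 8.44e-05. In NAD+ samples Prkaca fell by 1.16 on the log2 scale, with an SE of 0.08 and a limma adjusted p of 5.6e-05. Prkacb fell by 0.89 in NAD+ samples (limma adjusted p = 0.000156) and by 0.31 in Ctrl (limma adjusted p = 0.0483, or 0.144 without proliferating Ctrl replicate 3 and 0.00161 without its replicate 1).

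Prkar2a, the type II regulatory subunit that anchoring proteins hold at membranes, was at 14.27, 20.31 and 20.22 FPKM in proliferating Ctrl and at 8.25, 8.49 and 7.43 FPKM in differentiation Ctrl. With NAD+ its values were 19.65, 19.90 and 19.04 FPKM and 7.79, 8.99 and 7.34 FPKM. Proliferating and differentiation samples did not overlap, and the log2 fold change was -1.15 in Ctrl and -1.27 with NAD+, with limma adjusted p of 0.000956 and 4.33e-05. Prkar1b rose from a low level. It was at 0.54, 0.62 and 0.81 FPKM in proliferating Ctrl and at 1.30, 1.77 and 1.74 FPKM in differentiation Ctrl, with a log2 fold change of 1.17 and a limma adjusted p of 0.00408. With NAD+ the log2 fold change was 1.51 and the limma adjusted p 0.00168.

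Prkar1a, the main regulatory subunit, differed less. It was at 109.28, 115.81 and 128.00 FPKM in proliferating Ctrl and at 101.89, 102.51 and 97.84 FPKM in differentiation Ctrl, with a log2 fold change of -0.22 and a limma adjusted p of 0.0525, or -0.27 and 0.0118 without proliferating Ctrl replicate 1. With NAD+ it was at 116.33, 130.78 and 129.26 FPKM and at 93.70, 105.39 and 96.75 FPKM, with a log2 fold change of -0.35 and a limma adjusted p of 0.00666, whereas quantile normalization turned it to 0.14 with an adjusted p of 0.0897. Prkar2b, the other type II subunit, spread widely. It was at 3.33, 5.99 and 12.59 FPKM in proliferating Ctrl and at 3.96, 1.71 and 3.80 FPKM in differentiation Ctrl, which overlapped (log2 fold change -1.07, limma adjusted p = 0.129, or -1.52 and 0.0417 without proliferating Ctrl replicate 1). With NAD+ it was at 5.57, 13.17 and 6.25 FPKM and at 4.02, 4.07 and 2.92 FPKM and was called lower, with a log2 fold change of -1.07 and a limma adjusted p of 0.0283. That call was lost without any 1 of the differentiation NAD+ samples, with an adjusted p of up to 0.0888 over all alternatives.

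Summed regulatory per summed catalytic FPKM was 1.69 ± 0.0942 in proliferating Ctrl, 1.73 ± 0.00952 in proliferating NAD+, 2.42 ± 0.104 in differentiation Ctrl and 2.70 ± 0.0850 in differentiation NAD+. Type II subunits made up 17.5 ± 3.34% and 18.1 ± 1.93% of the summed regulatory FPKM under proliferating conditions, and 9.87 ± 0.865% and 10.5 ± 0.889% under differentiation conditions. Both ratios are unchanged by a single scaling factor per sample, as in median-ratio scaling, and were not computed under quantile normalization. In both, the proliferating and differentiation samples did not overlap.

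**Figure D4:**
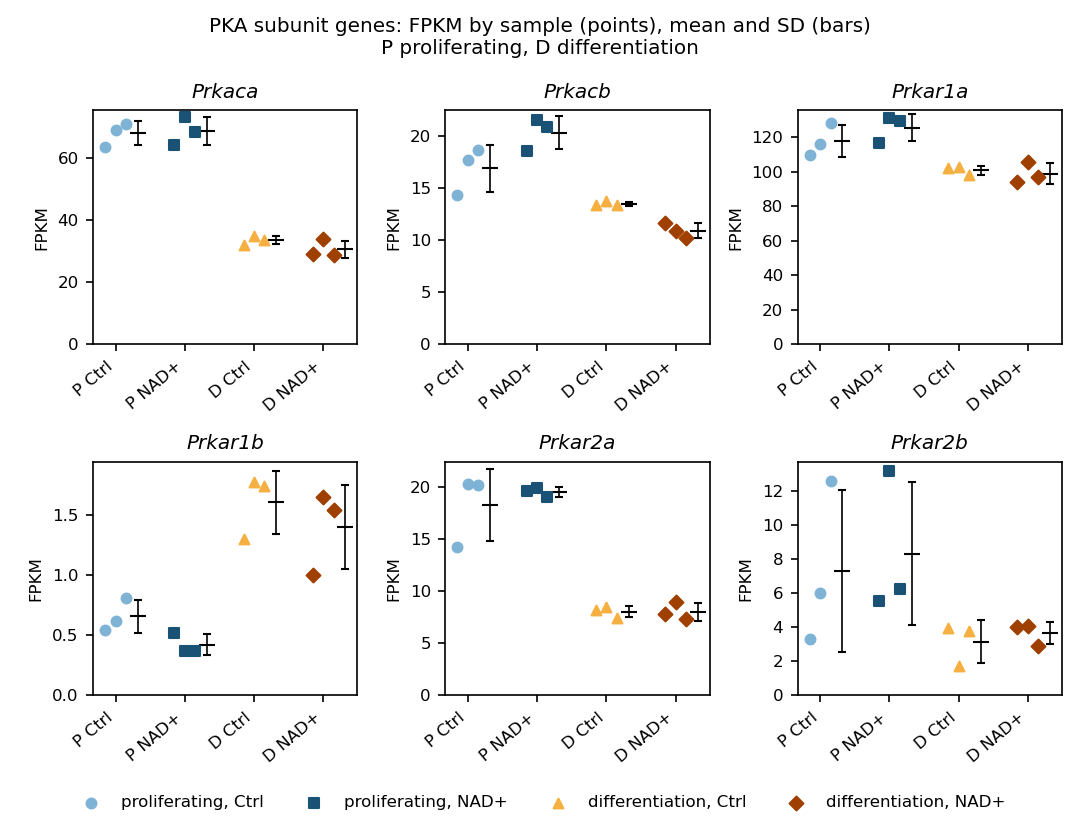
FPKM of the 6 PKA subunit genes, with 1 point a sample in replicate order and the mean and SD beside them (linear axes from 0, 4 groups). Prkaca and Prkar2a lie lower and Prkar1b higher in every differentiation sample than in any proliferating sample, and Prkar2b spreads widely within the proliferating groups.

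The cyclases split by isoform. Adcy5, Adcy6, Adcy8 and Adcy9 rose in both comparisons, Adcy1 fell in both, and Adcy2, Adcy3 and Adcy7 passed in neither. Adcy5 was at 1.08, 1.07 and 0.96 FPKM in proliferating Ctrl and at 2.13, 2.54 and 2.37 FPKM in differentiation Ctrl, with a log2 fold change of 1.10 and a limma adjusted p of 0.000927. Adcy6 was at 6.29, 8.65 and 8.26 FPKM and at 14.74, 12.79 and 12.90 FPKM, with a log2 fold change of 0.80 and a limma adjusted p of 0.00312. Neither gene had overlapping groups, and with NAD+ the log2 fold changes were 1.02 and 0.64.

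Adcy1, like Adcy8 a calcium-stimulated cyclase, went the other way. It was at 1.97, 3.30 and 3.26 FPKM in proliferating Ctrl and at 1.13, 0.97 and 1.03 FPKM in differentiation Ctrl, with a log2 fold change of -1.33 and a limma adjusted p of 0.00285. With NAD+ it was at 2.86, 2.96 and 2.79 FPKM and at 1.21, 1.21 and 1.06 FPKM, with a log2 fold change of -1.24 and a limma adjusted p of 0.000129. Adcy8 rose by the log2 fold changes 0.95 in Ctrl and 0.83 with NAD+, from different starting levels. Adcy9, the cyclase that responds weakly to forskolin, was at 1.30, 2.44 and 2.44 FPKM in proliferating Ctrl and at 3.72, 4.01 and 3.42 FPKM in differentiation Ctrl, with a log2 fold change of 0.87 and a limma adjusted p of 0.0245. Its Ctrl call was lost without any 1 of the differentiation Ctrl samples, with an adjusted p of up to 0.0778. In NAD+ samples Adcy9 rose from 2.79, 2.30 and 2.18 FPKM to 4.46, 5.17 and 3.82 FPKM (log2 fold change 0.86, limma adjusted p = 0.00251). The summed cyclase FPKM was 20.8 ± 2.03 and 20.0 ± 0.669 under proliferating conditions, and 32.0 ± 0.525 in Ctrl and 27.8 ± 0.357 with NAD+ under differentiation conditions.

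Among the phosphodiesterases called in both comparisons, Pde9a rose and Pde1b, Pde1c and Pde6d fell. Pde9a rose 3.19-fold in Ctrl, from 4.36 ± 1.44 to 13.9 ± 0.649 FPKM, with a log2 fold change of 1.70, an SE of 0.22 and a limma adjusted p of 0.000819. With NAD+ it rose 3.63-fold, with a log2 fold change of 1.84 and a limma adjusted p of 0.000136. It made up 10.8 ± 3.40% of the summed phosphodiesterase FPKM in proliferating Ctrl and 32.5 ± 1.73% in differentiation Ctrl, and 7.40 ± 1.95% and 23.8 ± 1.75% with NAD+. Every differentiation sample was above every proliferating sample.

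Pde1b fell by 1.43 on the log2 scale in Ctrl, with an SE of 0.19 and a limma adjusted p of 0.000944, and by 0.81 with NAD+. Its share of the summed phosphodiesterase FPKM was 19.0 ± 4.91% in proliferating Ctrl, 8.40 ± 0.0928% in proliferating NAD+, 6.36 ± 0.609% in differentiation Ctrl and 4.17 ± 0.316% in differentiation NAD+. Pde1c, of the same calcium-dependent family, was at 1.13, 1.89 and 1.59 FPKM in proliferating Ctrl and at 0.74, 0.71 and 0.78 FPKM in differentiation Ctrl. It fell by 0.93 in Ctrl and by 1.14 with NAD+, with limma adjusted p of 0.0112 and 0.00124, and its NAD+ comparisons had adjusted p of 0.966 and 0.478. Pde6d, the chaperone, was at 29.87, 19.71 and 23.55 FPKM in proliferating Ctrl and at 14.62, 16.18 and 14.61 FPKM in differentiation Ctrl, with a log2 fold change of -0.66 and a limma adjusted p of 0.0101. With NAD+ it was at 21.64, 23.21 and 23.27 FPKM and at 14.98, 14.48 and 13.49 FPKM, with a log2 fold change of -0.66 and a limma adjusted p of 0.000204. The groups of Pde6d overlapped in neither comparison, and quantile normalization ended its Ctrl call (adjusted p = 0.101).

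Whether a gene changed differently between conditions in Ctrl and in NAD+ samples is the same contrast as the difference of NAD+ effects, which passed for 0 of 31 genes, so genes called in 1 of the comparisons alone are given with both values. Pde7b rose by 1.24 with NAD+ (limma adjusted p = 0.000174) and had a log2 fold change of 0.41 in Ctrl (limma adjusted p = 0.108). Pde3b, a cAMP-hydrolysing enzyme that cGMP inhibits, fell by 0.99 with NAD+ (limma adjusted p = 0.000293) and had a log2 fold change of -0.41 in Ctrl (limma adjusted p = 0.0718, or 0.00569 without proliferating Ctrl replicate 1).

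Besides Pde7b, Pde3b, Prkar1a and Prkar2b, 4 genes were called between proliferating and differentiation NAD+ samples and not in Ctrl. Pde3a, the paralogue of Pde3b, rose in NAD+ samples from 1.06, 1.05 and 1.20 FPKM to 1.63, 1.67 and 1.72 FPKM (log2 fold change 0.56, limma adjusted p = 0.00705, against 0.51 and 0.0793 in Ctrl). Pde4b rose in NAD+ samples from 8.75, 9.19 and 8.74 FPKM to 10.89, 12.42 and 10.25 FPKM (log2 fold change 0.32, limma adjusted p = 0.0163, against 0.08 and 0.634 in Ctrl). Neither gene had overlapping NAD+ groups, and the Pde4b call was lost without proliferating NAD+ replicate 3 (adjusted p = 0.0533). Pde7a fell in NAD+ samples from 4.48, 4.31 and 4.94 FPKM to 3.47, 3.21 and 3.39 FPKM (log2 fold change -0.43, limma adjusted p = 0.00566, against -0.28 and 0.111 in Ctrl). Pde5a, a cGMP-specific enzyme, fell in NAD+ samples from 0.38, 0.28 and 0.38 FPKM to 0.05, 0.19 and 0.14 FPKM (log2 fold change -1.02, limma adjusted p = 0.0288, against -0.38 and 0.245 in Ctrl). The Pde5a call was kept in 2 of 6 fits that left out a sample and lost when replicate numbers were blocked (adjusted p = 0.0638).

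In Ctrl and not with NAD+, 3 genes were called, and these calls were fragile. Pde8a, a cAMP-specific enzyme, was at 0.79, 0.77 and 0.65 FPKM in proliferating Ctrl and at 0.42, 0.34 and 0.50 FPKM in differentiation Ctrl (log2 fold change -0.69, limma adjusted p = 0.0329, or 0.0603 without proliferating Ctrl replicate 1). Its paralogue Pde8b was at 0.29, 0.35 and 0.29 FPKM and at 0.47, 0.88 and 0.56 FPKM (log2 fold change 0.81, limma adjusted p = 0.0419, or 0.0768 without that sample). For each of these genes 1 of 6 fits that left out a sample kept the call, and blocking on replicate numbers gave adjusted p of 0.09 and 0.0642. In NAD+ samples the log2 fold change was -0.12 for Pde8a and 0.39 for Pde8b, with limma adjusted p of 0.642 and 0.211. Pde2a, the cGMP-stimulated enzyme, was at 3.28, 3.27 and 1.47 FPKM in proliferating Ctrl and at 0.95, 1.36 and 0.82 FPKM in differentiation Ctrl (log2 fold change -1.22, limma adjusted p = 0.0237, or 0.0676 without proliferating Ctrl replicate 1). Its call was kept in 2 of 6 fits that left out a sample.

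With NAD+, Pde2a was at 0.90, 2.85 and 2.23 FPKM under proliferating and at 0.08, 0.69 and 1.98 FPKM under differentiation conditions, and these groups overlapped (log2 fold change -1.51, limma adjusted p = 0.184). Of the 6149 exonic bases of Pde2a in GENCODE M21 (GRCm38), 3955 are shared with Gm45837, a gene on the same strand, and reads over shared bases cannot be told apart. Gm45837 was at 1.06, 1.32 and 4.43 FPKM in proliferating Ctrl and at 5.40, 1.30 and 1.69 FPKM in proliferating NAD+. Under differentiation conditions it was at 2.58, 1.55 and 2.18 FPKM in Ctrl and at 2.80, 1.75 and 0.50 FPKM with NAD+. In each group Gm45837 was lowest in the sample where Pde2a was highest, and the Pde2a values cannot be read apart from it. Exons of Adcy3 share 1380 bases with Cenpo on the opposite strand, and Adcy2, Adcy6, Pde3a, Pde5a, Pde7a, Pde8b, Pde9a and Prkar1b share 48 to 741 bases with other transcripts. The other 28 genes share none.

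**Figure D5:**
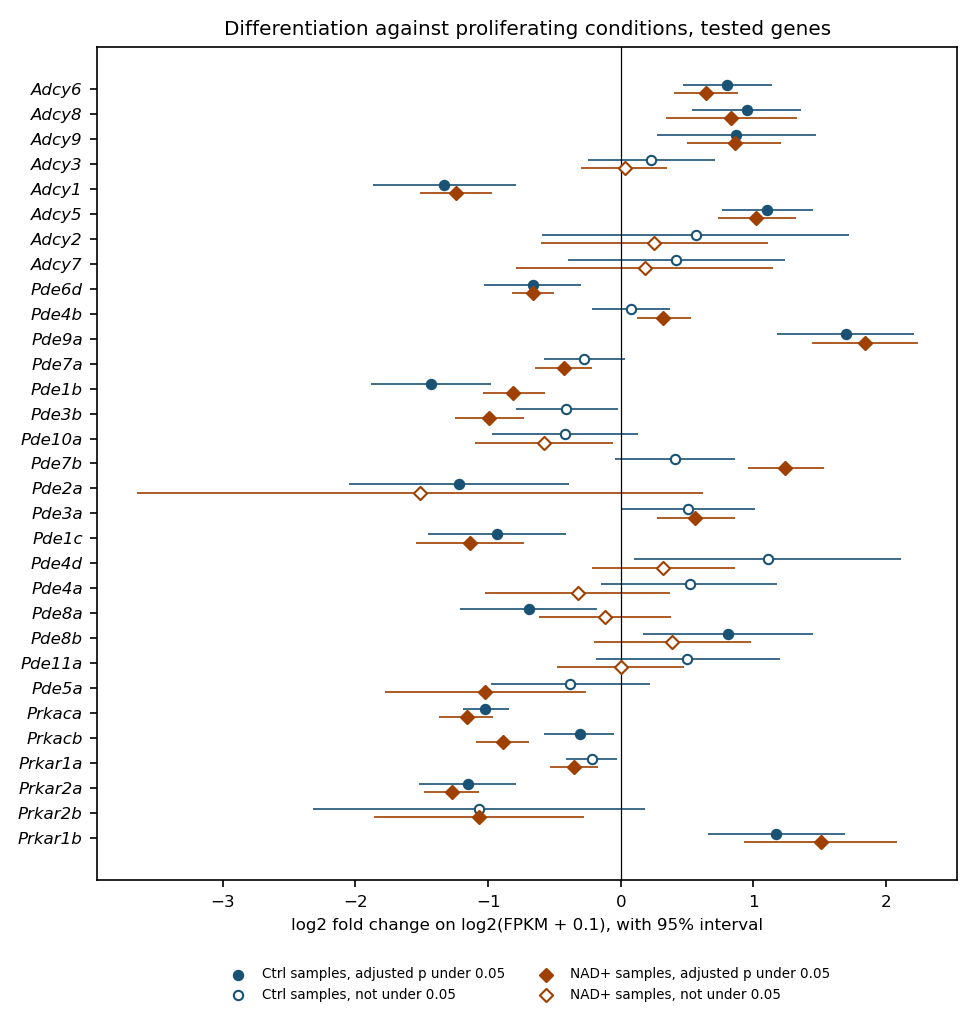
Log2 fold change of differentiation against proliferating conditions for the 31 tested genes, on the log2(FPKM + 0.1) scale with 95% intervals, in Ctrl (circles) and NAD+ samples (diamonds); filled symbols passed an adjusted p of 0.05. Pde9a and Prkar1b lie farthest to the right among the filled circles and diamonds, and Adcy1 and Prkar2a lie far to the left in both.

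Genes around the pathway were counted from lists chosen for their role. The lists were chosen with earlier results of these data known, so their counts are not an independent test. Under proliferating conditions, 0 genes of these lists passed in limma with NAD+. At an unadjusted p under 0.05 there were 1 of 7 G protein alpha subunits, 1 of 9 Gs-coupled receptors and 1 of 2 inhibitor peptides of PKA. There were also 1 of 10 anchoring proteins, 1 of 6 other cAMP effectors and exporters and 1 of 7 cGMP genes. The last lists gave 0 of 8 CREB factors and coactivators and 2 of 17 genes listed as cAMP-induced, against 15.4% of all tested genes. Counted once each, these were 8 of 65 genes (12.3%). Under differentiation conditions, 6 of 18 tested genes listed as cAMP-induced rose with NAD+ and 0 fell. Of all tested genes, 2.27% were called higher and 4.65% lower. The median log2 fold change of the 18 listed genes was 0.28, against -0.08 for all tested genes. Junb, an AP-1 subunit, was at 10.74, 11.14 and 10.96 FPKM in Ctrl and at 34.00, 29.44 and 32.64 FPKM with NAD+, a 2.93-fold higher mean (limma adjusted p = 0.000805). Fos, Nr4a3 and Vgf rose with log2 fold changes of 0.69, 1.41 and 1.39, and Egr1 and Dusp1 were the others called. Leaving out single samples ended the call of Dusp1 in 6 of 6 fits, those of Egr1 and Vgf in 2 and that of Nr4a3 in 1, and kept those of Junb and Fos. Sik1, a kinase gene that cAMP induces, was at 2.24, 2.39 and 2.20 FPKM in Ctrl and at 2.06, 2.29 and 1.94 FPKM with NAD+ and did not pass. Also not called were Gem, Scg2, Nr4a1, Nr4a2, Per1, Crem and Rgs2, with log2 fold changes from 0.05 to 0.84. Fosb, Nfil3, Ppargc1a and Per2 were not called either, with log2 fold changes from -0.55 to -0.20. The activity of CREB itself was not measured here, and what raised the 6 genes was not tested.

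Of the genes of the other lists, 4 of 51 passed in the same comparison (7.84%, against 6.92% of all tested genes). The cAMP exporter Abcc4 rose from 15.55, 14.66 and 16.39 FPKM to 22.35, 22.35 and 22.54 FPKM with NAD+, with a log2 fold change of 0.53 and a limma adjusted p of 0.00727. Of 2 tested inhibitor peptides of PKA, Pkig rose with a log2 fold change of 0.44 and a limma adjusted p of 0.0494, a call lost in 6 of 6 fits that left out a sample. Of 8 tested Gs-coupled receptors, the adenosine receptor Adora2b fell with a log2 fold change of -0.73 and a limma adjusted p of 0.0191, a call lost without any 1 of the differentiation Ctrl samples. Of 6 tested cGMP genes, Gucy1b1, a subunit of soluble guanylyl cyclase, fell with a log2 fold change of -0.85 and a limma adjusted p of 0.00665. None of 7 G protein alpha subunits, 12 anchoring proteins and 8 CREB factors and coactivators passed in limma, with 1, 0 and 1 at an unadjusted p under 0.05.

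Between the conditions, 44 of the 67 tested genes of all these lists passed in Ctrl (65.7%, against 52.4% of all tested genes), with 23 higher and 21 lower (22.6% and 29.7% of all tested genes were called higher and lower). With NAD+ 47 of 67 passed (70.1%, against 60.0%), with 23 higher and 24 lower (21.4% and 38.5% of all tested genes). Of 7 G protein alpha subunits, 2 rose and 4 fell in Ctrl, and 2 rose and 5 fell with NAD+. Gnas, which encodes the stimulatory alpha subunit, was at 96.29, 76.08 and 73.38 FPKM in proliferating Ctrl and at 36.50, 38.61 and 41.46 FPKM in differentiation Ctrl, with a log2 fold change of -1.07 and a limma adjusted p of 0.000453. Gnao1 rose with a log2 fold change of 1.64 and Gnai1 fell with one of -0.91. Both tested inhibitor peptide genes fell, Pkia with a log2 fold change of -1.39 and Pkig with one of -1.91 in Ctrl.

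Of 9 tested Gs-coupled receptors, 3 rose and 3 fell in Ctrl. Adcyap1r1, the receptor of the peptide PACAP, was at 116.41, 117.68 and 116.36 FPKM in proliferating Ctrl and at 266.76, 255.05 and 282.21 FPKM in differentiation Ctrl, with a log2 fold change of 1.20 and a limma adjusted p of 3.83e-05. The beta-adrenergic receptor Adrb1 fell with a log2 fold change of -2.19. Of 7 other effectors and exporters tested, 4 rose and 2 fell in Ctrl, and Rapgef3, a cAMP-activated exchange factor, rose with a log2 fold change of 1.37. Of 11 anchoring proteins, 2 rose and 2 fell in Ctrl, with Akap12 at 2.14, 6.32 and 6.90 FPKM in proliferating Ctrl and at 0.40, 0.59 and 0.48 FPKM in differentiation Ctrl. Of 18 genes listed as cAMP-induced, 7 rose and 4 fell, with Sik1 higher (log2 fold change 1.70) and Dusp1 lower (log2 fold change -2.33). Of 8 CREB factors and coactivators, 3 rose and 1 fell, and of 6 cGMP genes, 2 rose and 3 fell, with the natriuretic peptide receptor Npr2 higher by a log2 fold change of 1.97. With NAD+ the counts of higher and lower genes were 2 and 3 of 9 receptors and 4 and 2 of 7 effectors and exporters. They were 3 and 3 of 11 anchoring proteins and 2 and 2 of 8 CREB factors and coactivators. Of 17 genes listed as cAMP-induced they were 8 and 4, and of 7 cGMP genes 2 and 3.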

How the data were processed

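Per the labels and the study's methods, libraries of total RNA were made with a NEBNext Ultra RNA kit, reads were mapped to mm10 with Hisat2 and uniquely mapped reads were counted with FeatureCounts. The authors deposited FPKM values per gene and sample, rounded to 0.01, in a table per condition. The program that computed FPKM and the strand setting of the counting are not given in the sources used here. The tables also hold the authors' fold change, its log2 and p- and q-values of NAD+ against Ctrl, which were not used. Depth is unknown, so no counting error can be given.

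Here, 0.1 was added to the FPKM values, log2 was taken, and genes that averaged 0.1 FPKM or more in the samples compared were fitted across the transcriptome with limma 3.58.1 in R 4.3.3 (variance trend, two-sided). P-values were adjusted by the Benjamini-Hochberg method over all tested genes, and a gene was called at an adjusted p under 0.05. Each comparison used its 2 groups, and the difference of NAD+ effects all 12 samples. The method was tested on simulated data with independent normal errors and known fold changes, which held no deviating sample such as proliferating Ctrl replicate 1. The 38 genes and the pathway and marker lists were chosen with earlier results of these data known. An oligodendrocyte lineage marker of the original list is not reported here, and its values are in no sum or count of that list. Described with values in each sample or with group means or fold changes were genes called in any comparison, up to 5 with the smallest unadjusted p in each NAD+ comparison and the most abundant gene of each family, and from each other list up to 4 called genes with the smallest p. Gene positions and exons came from GENCODE M21 (GRCm38), promoter sequences from RefSeq. Alternatives were 1 or 0.01 added before log2, no filter or a minimum mean of 1, median-ratio scaling, quantile normalization, the replicate number as a block and each sample left out. Figures were drawn with matplotlib 3.10.9.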

Additional observations from a re-analysis of the deposited data

Results flagged for a closer look

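The NAD+ effect on Gucy1b1, a subunit of the soluble guanylyl cyclase that makes the cGMP which Pde9a and other members of the phosphodiesterase family hydrolyse, differed between conditions by -0.78 on the log2 scale (differentiation minus proliferating, SE 0.12, limma adjusted p = 0.0221). It was the 1 gene called of 68 tested genes of the pathway lists (1.47%, against 0.467% of all tested genes). Those lists were chosen with earlier results of these data known. Blocking on replicate numbers gave an adjusted p of 0.0643. The call was kept in 4 of 12 fits that left out a sample, with an adjusted p of up to 0.0854. Gucy1b1 was at 6.84, 7.71 and 7.69 FPKM in proliferating Ctrl, 6.85, 7.18 and 7.19 FPKM in proliferating NAD+, 4.59, 4.13 and 4.13 FPKM in differentiation Ctrl and 2.25, 2.41 and 2.33 FPKM in differentiation NAD+.

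Pde3b was flagged by a search of the 31 tested genes for groups that did not overlap in either condition and lay in opposite order. Under proliferating conditions it was at 2.41, 3.32 and 3.37 FPKM in Ctrl and at 3.48, 4.18 and 4.12 FPKM with NAD+. Under differentiation conditions it was at 2.11, 2.31 and 2.29 FPKM in Ctrl and at 1.86, 1.94 and 1.95 FPKM with NAD+. Groups did not overlap for 24.1% and 30.7% of all tested genes in these comparisons. How many of all genes lay in opposite order was not counted. The difference of the effects was -0.58 on the log2 scale and did not pass, with a limma adjusted p of 0.199.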

How the results depend on the processing

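Under proliferating conditions, 0 genes were called with NAD+, and 1 (Pde1b, adjusted p = 0.0412) with a minimum mean FPKM of 1, a setting under which fewer genes were tested. Leaving out single samples gave 0 to 1 genes there, 1 to 5 genes with NAD+ under differentiation conditions (6 with all samples), 12 to 19 and 19 to 21 genes between conditions in Ctrl and in NAD+ samples (16 and 21 with all samples), and 0 to 1 genes for the difference of NAD+ effects. All other settings kept these counts within 1.5 times. Over all tested genes, fits that left out a sample called 0 to 36 genes under proliferating and 328 to 719 under differentiation conditions. Between conditions they called 8504 to 10776 genes in Ctrl and 10326 to 11320 with NAD+. For the difference of NAD+ effects they called 12 to 195. Prkar1a between conditions with NAD+ turned from -0.35 to 0.14 under quantile normalization; the cause was not tested. Without a filter, Pde4a and Prkacb were not called with NAD+ under differentiation conditions, where more genes were tested. Of the values of the 31 tested genes under the alternatives, 2060 kept their side of the threshold, 77 lost the call, 21 gained it and 1 reversed. The replicate number as a block gave 0, 4, 13, 20 and 0 of the 31 genes called, and 0, 758, 9039, 10880 and 26 of all tested genes, in the order proliferating, differentiation, between conditions in Ctrl and in NAD+ samples, and the difference of NAD+ effects. Same-numbered samples correlated around their group means by 0.021 to 0.111, 0.026 to 0.043, -0.066 to -0.031 and -0.051 to 0.002 in the first 4, so the numbers were not taken to pair the samples, although 6 of 6 differentiation samples correlated best with their own number. With 3 samples a group and unknown depth, values under 1 FPKM, such as those of Pde4a, have no known counting error.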
